A study of Homo sapiens with 12 samples.

Results

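The genes examined here are 35 genes of mitochondrial fatty acid oxidation, out of 58907 genes in the deposited count table. They were taken by gene symbol from a list of the carnitine shuttle, the acyl-CoA dehydrogenases, the enzymes that hydrate, oxidize and cleave the acyl chain, the electron transfer flavoprotein, and ketone body and propionyl-CoA steps. A filter on low counts kept 15252 genes for testing, and 34 of the 35 passed it. ACAD11, an acyl-CoA dehydrogenase, had 0 to 6 counts per library and was not tested.

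The RNA was polyadenylated RNA of (PPRE)-eGEP-THP-1 cells, which derive from THP-1, a monocytic line established from a human leukaemia. The cells of all 4 groups had been turned into macrophages with 25 ng/mL of the phorbol ester PMA over 48 h, followed by 24 h without it. The first group was polarized toward M1 for 24 h with interferon gamma at 20 ng/mL and lipopolysaccharide at 100 ng/mL, together with 100 µM MCHP (monocyclohexyl phthalate, a phthalate monoester), and the second received the same M1 agents with the solvent DMSO. The third group was polarized toward M2 with interleukin-4 and interleukin-13 (20 ng/mL each) for 24 h together with 100 µM MCHP, and the fourth received the same M2 agents with DMSO. Each group held 3 libraries. They are labelled biological replicates, with no statement of separate cultures, so p-values measure only the spread between these libraries, which may be technical. All groups come from a single derived line, and the labels do not say whether it is a clone.

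Totals lay between 14352202 and 16871233 counts per library. Replicate 1 of M2 DMSO lay farther from the rest of its group than any other library: the SD over genes of its log2 deviation from its own group was 0.325, against 0.186 to 0.226 in the other 11 libraries. For some results that rest on it, but not for all, the outcome without it is given as well. The macrophage genes CSF1R, ITGAM and SPI1 were detected in every library at no less than 243.5, 348 and 287 CPM (read counts relative to TMM-scaled library size), but CD68, also a macrophage marker, stood at 0 to 0.508 CPM, and 81.7% of its exonic bases are shared with an overlapping gene on the same strand. The 6 M1 markers summed to 1864 to 1980 CPM in M1 MCHP and 1969 to 2051 CPM in M1 DMSO, against 48.2 to 52.6 CPM in M2 MCHP and 44.9 to 55.5 CPM in M2 DMSO. The 6 M2 markers summed to 11274 to 11463 CPM in M2 MCHP and 8811 to 11188 CPM in M2 DMSO, against 2358 to 2377 CPM in M1 MCHP and 2151 to 2202 CPM in M1 DMSO. Most of this sum was TGM2, at 8021 to 10192 CPM in the M2 libraries and 2090 to 2301 CPM in the M1 libraries. CD209, TGM2, CCL22 and ALOX15 were each higher in every M2 library than in every M1 library, while the mannose receptor gene MRC1 had 2 counts in all 12 libraries together and MAOA had 0. The 4 adipocyte markers summed to at most 0.525 CPM in any library, and the T cell, B cell, hepatocyte and epithelial markers stood below 1 CPM. The fibroblast marker COL1A1 stood at 21.9 to 136 CPM while COL3A1 was at 0. These are bulk samples, in which fewer cells of a type and less RNA per cell cannot be told apart.

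Long-chain fatty acids enter mitochondria as carnitine esters: CPT1 makes the acylcarnitine at the outer membrane, the carrier SLC25A20 moves it across the inner membrane and CPT2 restores the acyl-CoA. Each turn of beta-oxidation then uses an acyl-CoA dehydrogenase, an enoyl-CoA hydratase, a hydroxyacyl-CoA dehydrogenase and a thiolase, and shortens the chain by an acetyl-CoA. For long chains the last 3 activities sit together in the trifunctional protein, made of HADHA and HADHB subunits, while shorter chains use separate enzymes such as ECHS1, HADH and ACAA2. In macrophages, alternative activation by interleukin-4 is known for fatty acid oxidation, and M1 activation for glycolysis.

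Per length, ACADVL was the most abundant of these transcripts in all 4 groups. ACADVL, the very-long-chain acyl-CoA dehydrogenase, averaged 70.6 ± 0.834 FPKM in M1 MCHP and 60.7 ± 2.31 FPKM in M1 DMSO, and 92.4 ± 3.75 FPKM in M2 MCHP and 75.7 ± 7.92 FPKM in M2 DMSO (CPM per kilobase of gene model; mean and SD, n = 3). HADHA averaged 29.5 ± 0.172 FPKM in M1 MCHP, 27.0 ± 0.290 in M1 DMSO, 58.1 ± 3.44 in M2 MCHP and 38.2 ± 1.23 in M2 DMSO, close to HADHB in M2 DMSO at 39.7 ± 3.02 FPKM. ETFA, the alpha subunit of the electron transfer flavoprotein, and ECHS1, the short-chain enoyl-CoA hydratase, came next in M2 DMSO at 26.1 ± 2.53 and 23.7 ± 3.28 FPKM, closer to each other than their SDs. In M1 DMSO, ECHS1 at 27.6 ± 1.15 FPKM and HADHA differed by less than the SD of ECHS1.

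The entry step stood lower on the same scale. CPT1A averaged 4.81 ± 0.251 FPKM in M1 MCHP and 4.40 ± 0.203 FPKM in M1 DMSO, and 6.88 ± 1.10 FPKM in M2 MCHP and 5.33 ± 0.716 FPKM in M2 DMSO. Its muscle-type paralog CPT1B averaged 0.376 ± 0.0454 FPKM in M1 MCHP and 0.428 ± 0.0368 FPKM in M1 DMSO, and 0.107 ± 0.0539 FPKM in M2 MCHP and 0.164 ± 0.0611 FPKM in M2 DMSO. Per length, CPT1A was the higher of the pair in all 4 groups. The summed level of all 35 genes was 1419 ± 9.89 CPM in M1 MCHP and 1365 ± 26.6 CPM in M1 DMSO, and 1828 ± 31.0 CPM in M2 MCHP and 1567 ± 19.4 CPM in M2 DMSO, and the libraries did not overlap between groups. This sum is weighted toward the genes with the most counts and does not describe each gene. ACADVL, HADHA and HADHB averaged 450, 255 and 217 CPM in M2 MCHP, against 369, 168 and 170 CPM in M2 DMSO.

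**Figure D1:**
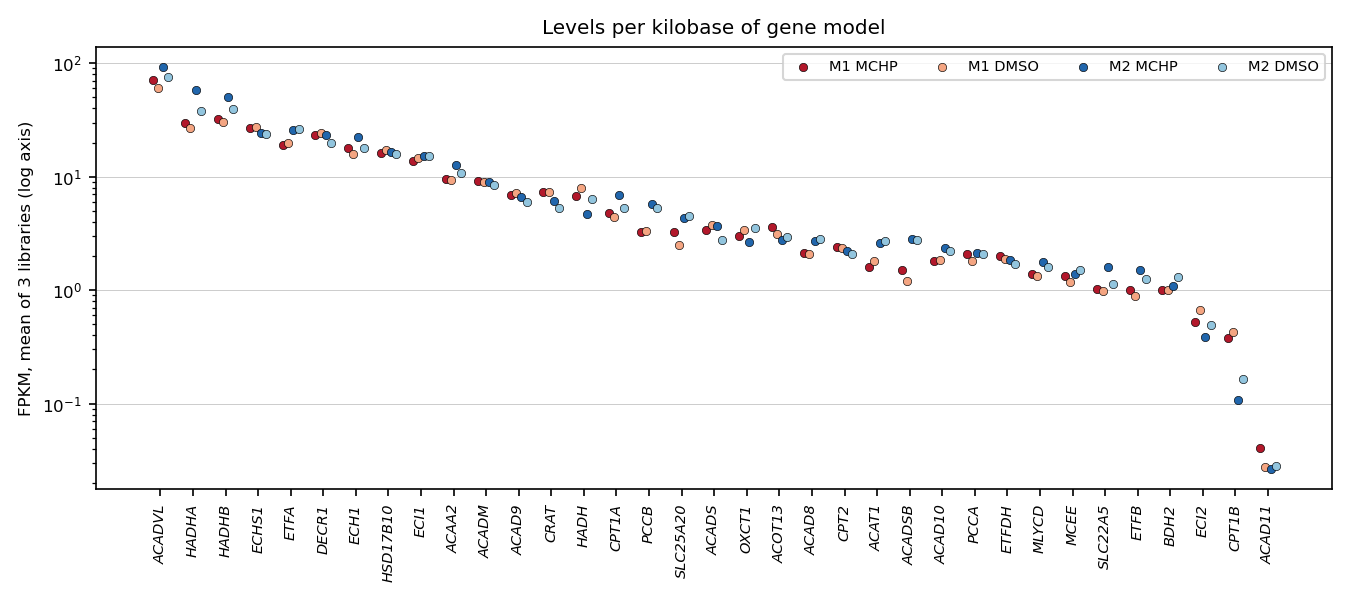
Mean FPKM (log axis, CPM per kilobase of gene model, 3 libraries a group) of the 35 genes, with M1 MCHP, M1 DMSO, M2 MCHP and M2 DMSO from left to right within each gene. ACADVL, at 60.7 to 92.4 FPKM, lies above every other gene in each group, and ACAD11 lies lowest.

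In M2 cells, MCHP was set against DMSO to see what the phthalate does during alternative polarization. There, 5 of the 34 tested genes rose (HADHA, SLC22A5, HADHB, ECH1 and ACADVL), 2 fell (HADH and OXCT1) and 27 were not called at an adjusted p of 0.05. Of all 15252 genes 5.11% were called, 2.92% higher and 2.18% lower. At an unadjusted p under 0.05 there were 11 of the 34, 9 higher and 2 lower, against 18.8% of all genes. Scaling by library size alone turned the split over all genes to 306 higher and 465 lower, against 446 higher and 333 lower with TMM factors, and called 4 of the 34 higher and 2 lower, without ECH1. The median log2 fold change of the 34 genes was 0.08, against 0.00 for all genes, with 23 positive and 11 negative values. The called changes were modest, between -0.43 and 0.60 on the log2 scale.

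HADHA and HADHB encode the alpha and beta subunits of the trifunctional protein, and lie head to head on chromosome 2 (hg38; HADHA, ENSG00000084754, 26190635 to 26244726 on the minus strand; HADHB, ENSG00000138029, 26243170 to 26290468 on the plus strand). Their gene models overlap over 1557 bases but share no exonic base. In M2 cells HADHA had 256, 239 and 269 CPM with MCHP, against 163, 167 and 173 CPM with DMSO. Every MCHP library lay above every DMSO library, and the log2 fold change was 0.60 ± 0.06 (SE; adjusted p = 4.7e-06 by the quasi-likelihood test of edgeR, as for all adjusted p below). HADHB had 208, 230.3 and 214 CPM with MCHP, against 184, 166 and 159 CPM with DMSO, again with no overlap (0.35 ± 0.06, adjusted p = 0.0023). Both subunits of the complex therefore rose, HADHA to 1.52-fold and HADHB to 1.28-fold.

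The RefSeq starts of HADHA and HADHB are 307 bases apart, and the 194 of the bases between them that lie within 250 bases of both starts are shown because these called partners share them (RefSeq, GRCh38.p14, chr2:26244689-26244882, plus strand; capitals mark a GC box, CCGCCC, which reads GGGCGG on the other strand).
HADHA-HADHB upstream: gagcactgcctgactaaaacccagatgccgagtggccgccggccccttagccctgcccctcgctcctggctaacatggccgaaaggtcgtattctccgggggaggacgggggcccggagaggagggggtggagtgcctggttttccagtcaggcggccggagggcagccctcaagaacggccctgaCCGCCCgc
In RefSeq windows from 250 bases before to 50 after each start, searched on both strands, GGGCGG was present in 25 of the 29 genes with a window and in 45.0% of all 35116 windows. The direct repeat bound by PPAR with RXR, AGGTCA and AGGTCA with any 1 base between, was present in 0 of the 29 and in 0.0228% of all windows. The single AGGTCA, which that repeat contains, was present in 3 (ACAD10, MCEE and PCCA), against 13.8% of all windows. The NRF1 motif, GCGC and TGCGC with any 1 base between, was present in 4 (ACAD9, ACOT13, ETFB and PCCB), against 5.78%. The cyclic AMP response element TGACGTCA was present in ACAD9 alone of these genes, against 1.85%, and the estrogen-related receptor motif TNAAGGTCA, which also contains AGGTCA, in 0, against 0.951%. These are letter matches in short windows and carry no statement about binding. A gene was counted if any of its windows matched (36 windows for the 29 genes), whereas the percentages are of single windows. The counts and percentages are therefore unlike measures.

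HADH, the hydroxyacyl-CoA dehydrogenase of medium and short chains (ENSG00000138796, chromosome 4, 107989714 to 108035175), moved the other way. It had 56.1, 57.8 and 56.8 CPM in M2 MCHP, against 84.8, 71.7 and 74.0 CPM in M2 DMSO. The groups did not overlap, and HADH fell by 0.43 ± 0.07 on the log2 scale (adjusted p = 0.0016). Of the other enzymes of these steps, the medium-chain thiolase ACAA2 had 63.9, 67.6 and 61.4 CPM with MCHP, against 59.0, 51.7 and 51.8 CPM with DMSO. The ACAA2 libraries did not overlap but the difference was not called (0.25 ± 0.08, adjusted p = 0.065). ECHS1 (0.02) and HSD17B10, which oxidizes short branched acyl-CoA (0.07), were not called.

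The ratio of HADHA to HADH counts within a library, chosen after the values were seen and given as a description, was 4.57, 4.14 and 4.73 in M2 MCHP, against 1.92, 2.33 and 2.34 in M2 DMSO. In M1 cells the same ratio was 1.62, 1.59 and 1.59 with MCHP, against 1.22, 1.15 and 1.35 with DMSO. Within each polarization every MCHP library lay above every DMSO library. The ratio of the partners HADHA and HADHB was 1.23, 1.04 and 1.26 in M2 MCHP, against 0.882, 1.00 and 1.09 in M2 DMSO, and these ranges overlapped. Ratios of counts carry the unequal lengths of the gene models and are compared only between libraries.

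**Figure D2:**
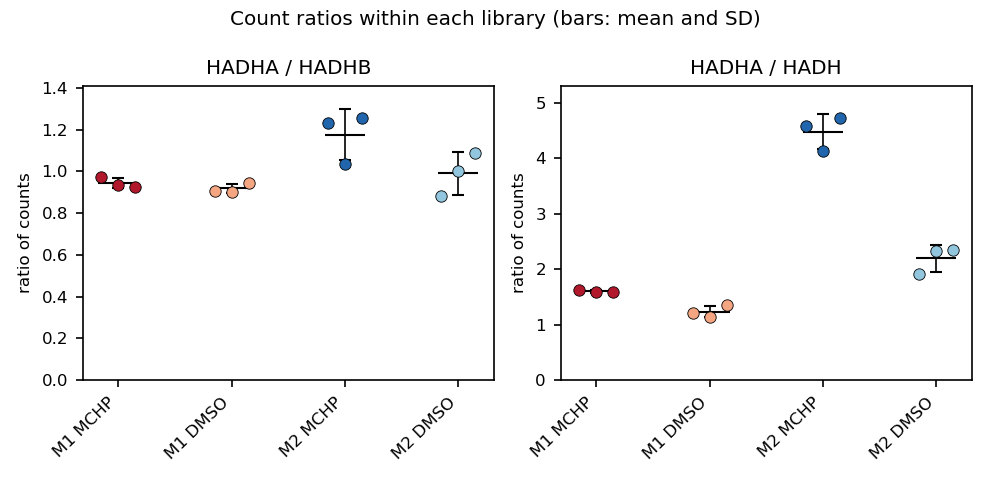
Ratio of counts within each library for HADHA over HADHB (left) and HADHA over HADH (right), in M1 MCHP, M1 DMSO, M2 MCHP and M2 DMSO; points are libraries and bars the mean and SD. The HADHA over HADH ratio reached 4.14 to 4.73 in M2 MCHP, against 1.92 to 2.34 in M2 DMSO, while the HADHA over HADHB ratios of these groups overlapped.

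Among the genes of the carnitine shuttle, SLC22A5, the plasma membrane carnitine transporter (ENSG00000197375, chromosome 5, 132369752 to 132395614), had 19.7, 20.0 and 22.2 CPM in M2 MCHP, against 12.6, 13.7 and 17.3 CPM in M2 DMSO. It rose by 0.50 ± 0.11 (adjusted p = 0.014), with no overlap between the groups. CPT1A (ENSG00000110090, chromosome 11, 68754620 to 68844410) had 41.5, 40.6 and 53.5 CPM with MCHP, against 29.6, 37.3 and 38.0 CPM with DMSO. All 3 MCHP libraries were higher, 1 of them by a wide margin, and the difference of 0.37 ± 0.11 missed the threshold (adjusted p = 0.059). It passed under 4 of 18 alternatives, among them DESeq2 (adjusted p = 0.033), and stood at 0.22 without M2 MCHP replicate 3 (adjusted p = 0.35). The rest of the shuttle was not called: SLC25A20 stood at -0.04 ± 0.16, CPT2 at 0.09 ± 0.09 and CRAT, which makes acetylcarnitine, at 0.20 ± 0.12. CPT1B, with 3 to 28 counts per library and 66.4% of its exonic bases shared with the readthrough gene CHKB-CPT1B, stood at -0.60 ± 0.43 and was not called.

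Of the 5 tested straight-chain acyl-CoA dehydrogenases, ACADVL (ENSG00000072778, chromosome 17, 7217125 to 7225273) was called. It had 455, 465 and 429 CPM in M2 MCHP, against 324, 391 and 390.5 CPM in M2 DMSO. The groups did not overlap and ACADVL rose by 0.29 ± 0.07 (adjusted p = 0.017). Its fold was 1.22, on the transcript with the most counts of the set. The medium-chain enzyme ACADM stood at 0.08 ± 0.07, the short-chain enzyme ACADS at 0.41 ± 0.16 (adjusted p = 0.16), ACAD9, which also serves complex I assembly, at 0.15 ± 0.09, and ACAD10 at 0.09 ± 0.09. Neither branched-chain dehydrogenase was called, ACADSB at 0.03 ± 0.10 and ACAD8 at -0.05 ± 0.11.

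The auxiliary enzymes handle double bonds of unsaturated chains. ECH1, a dienoyl-CoA isomerase (ENSG00000104823, chromosome 19, 38815422 to 38832005), had 59.5, 52.3 and 54.1 CPM in M2 MCHP, against 39.9, 48.6 and 45.1 CPM in M2 DMSO. It rose by 0.31 ± 0.08 (adjusted p = 0.036), without overlap, and 16.3% of its exonic bases are shared with another gene on the same strand. DECR1, the dienoyl-CoA reductase, stood at 0.23 ± 0.08 (adjusted p = 0.11), the enoyl-CoA isomerase ECI1 at 0.00 ± 0.09 and its paralog ECI2 at -0.36 ± 0.30. Neither the electron transfer flavoprotein subunits ETFA (-0.01 ± 0.08) and ETFB (0.26 ± 0.19) nor their oxidoreductase ETFDH (0.12 ± 0.18) were called.

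OXCT1, which activates acetoacetate for use as fuel (ENSG00000083720, chromosome 5, 41730065 to 41870519), had 10.7, 11.1 and 11.3 CPM in M2 MCHP, against 15.4, 15.3 and 13.8 CPM in M2 DMSO. The groups did not overlap and OXCT1 fell by 0.43 ± 0.10 (adjusted p = 0.015). The mitochondrial thiolase ACAT1 (-0.04 ± 0.13) and BDH2, a hydroxybutyrate dehydrogenase (-0.24 ± 0.23), were not called. Nor were the propionyl-CoA carboxylase subunits PCCA (0.03 ± 0.12) and PCCB (0.14 ± 0.08), the epimerase MCEE (-0.10 ± 0.26), the malonyl-CoA decarboxylase MLYCD (0.17 ± 0.09) and the thioesterase ACOT13 (-0.06 ± 0.14).

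Without M2 DMSO replicate 1 all 7 genes were still called, at 0.58 for HADHA, 0.42 for HADHB, 0.41 for SLC22A5, 0.24 for ECH1, 0.20 for ACADVL, -0.35 for HADH and -0.40 for OXCT1, and ACAA2, DECR1 and ETFDH were called higher as well, beside 11.2% of all genes. Fitted on the 6 M2 libraries alone only HADHA and HADH remained called, beside 1.26% of all genes. There the other 5 stood at 0.49 for SLC22A5, 0.35 for HADHB, 0.30 for ECH1, 0.28 for ACADVL and -0.43 for OXCT1. Without M2 MCHP replicate 1 the count was 4 (HADHA, HADHB, SLC22A5 and HADH), beside 2.44% of all genes. DESeq2 called 9, these 7 with CPT1A and ACAA2, beside 996 of all 15252 genes. That is 8.1% of the genes to which DESeq2 gave an adjusted p, a smaller base than for the other shares. The share of counts from mitochondrially encoded genes moved with the same comparison, at 3.88 ± 0.354% in M2 MCHP and 3.15 ± 0.0719% in M2 DMSO (SD, n = 3), and its part in these results was not tested.

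**Figure D3:**
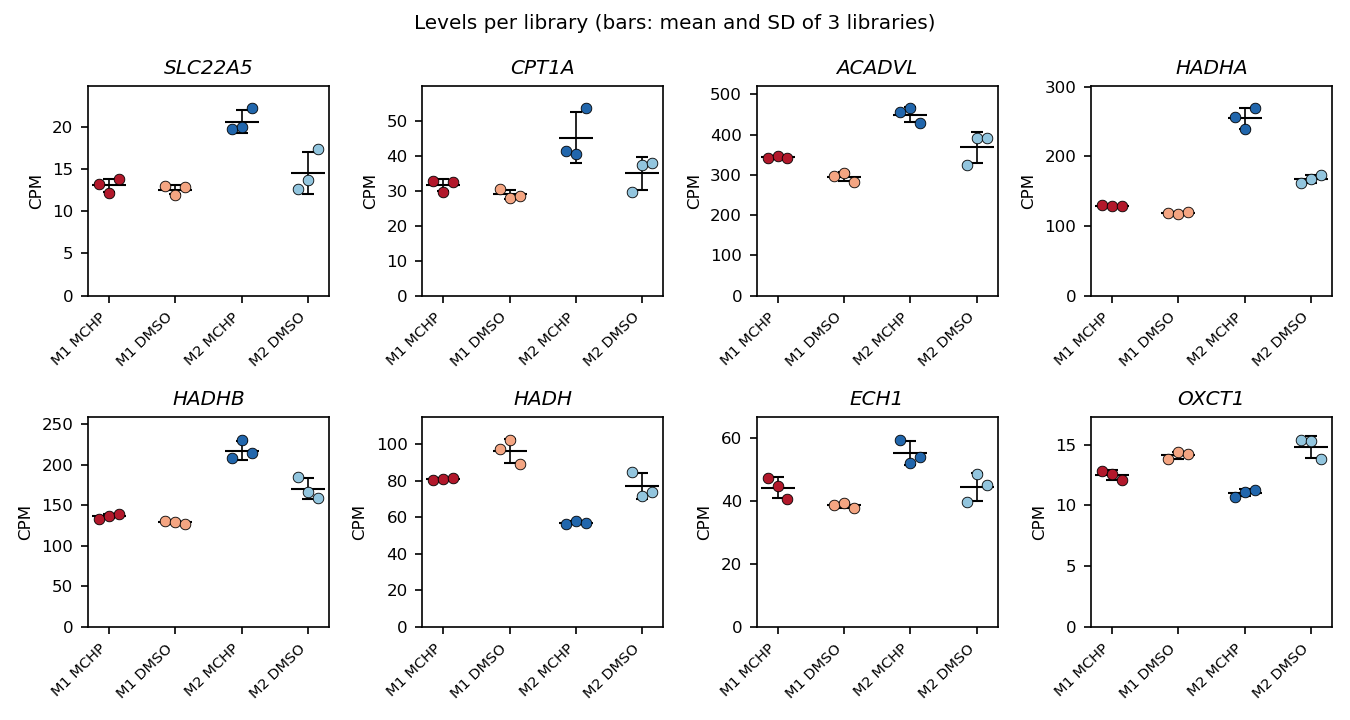
CPM in each of the 12 libraries for the 7 genes called in M2 cells and for CPT1A; points are libraries, bars the mean and SD of 3, with M1 MCHP, M1 DMSO, M2 MCHP and M2 DMSO from left to right. HADHA stands at 239 to 269 CPM in M2 MCHP, against 163 to 173 CPM in M2 DMSO, while HADH and OXCT1 are lower in M2 MCHP than in M2 DMSO.

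The same comparison in M1 cells called none of the 34 genes by edgeR, beside 0.0852% of all genes (0.0721% higher, 0.0131% lower), and DESeq2 called 0 as well. At an unadjusted p under 0.05 there were 5 genes, 4 higher and 1 lower, against 5.36% of all genes. The median log2 fold change of the 34 was 0.02, against 0.00 for all genes, with 19 positive and 15 negative values.

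The 5 genes were ACADVL, ACADSB, ECH1, HADHA and HADH. ACADVL had 341, 348 and 341 CPM in M1 MCHP, against 297, 305 and 283 CPM in M1 DMSO (0.22 ± 0.07, adjusted p = 0.51). HADH had 80.3, 81.0 and 81.3 CPM in M1 MCHP, against 97.4, 102 and 88.8 CPM in M1 DMSO (-0.25 ± 0.07, adjusted p = 0.39). For both genes the groups did not overlap, with ACADVL at higher values and HADH at lower values with MCHP. ECH1 had 47.5, 45.0 and 40.8 CPM in M1 MCHP, against 38.9, 39.4 and 37.9 CPM in M1 DMSO (0.20 ± 0.09, adjusted p = 0.88). ACADSB, the dehydrogenase of short branched chains, averaged 9.41 ± 0.307 CPM in M1 MCHP and 7.56 ± 0.508 CPM in M1 DMSO (0.32 ± 0.11, adjusted p = 0.66).

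HADHA had 130.0, 129 and 129 CPM in M1 MCHP, against 119, 117 and 119.5 CPM in M1 DMSO. These ranges did not overlap either, although the difference was 0.13 ± 0.06 (adjusted p = 0.92). HADHB had 134, 137 and 139 CPM in M1 MCHP, against 130.4, 129.8 and 126 CPM in M1 DMSO (0.08 ± 0.06). SLC22A5 had 13.3, 12.2 and 13.8 CPM in M1 MCHP, against 12.9, 11.9 and 12.9 CPM in M1 DMSO, and these overlapped (0.06 ± 0.12). CPT1A had 32.7, 29.7 and 32.3 CPM in M1 MCHP, against 30.4, 27.8 and 28.6 CPM in M1 DMSO, and these overlapped (0.13 ± 0.11). OXCT1 had 12.8, 12.6 and 12.1 CPM in M1 MCHP, against 13.8, 14.4 and 14.2 CPM in M1 DMSO, without overlap (-0.18 ± 0.10, adjusted p = 0.96). The widest positive value was that of SLC25A20, at 6.20, 5.45 and 7.54 CPM in M1 MCHP, against 5.50, 4.58 and 4.77 CPM in M1 DMSO, where the groups overlapped (0.37 ± 0.18).

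The M1 calls changed with the libraries that entered the fit. Fitted on the 6 M1 libraries alone, ACADVL (adjusted p = 0.00034) was called higher and HADH (adjusted p = 0.0029) lower, beside 2.07% of all genes. Without M2 DMSO replicate 1, ACADVL (adjusted p = 0.0034) and HADH (adjusted p = 0.010) were called too, beside 1.02% of all genes. The mitochondrially encoded share of counts was 3.09 ± 0.134% in M1 MCHP and 2.96 ± 0.171% in M1 DMSO.

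**Figure D4:**
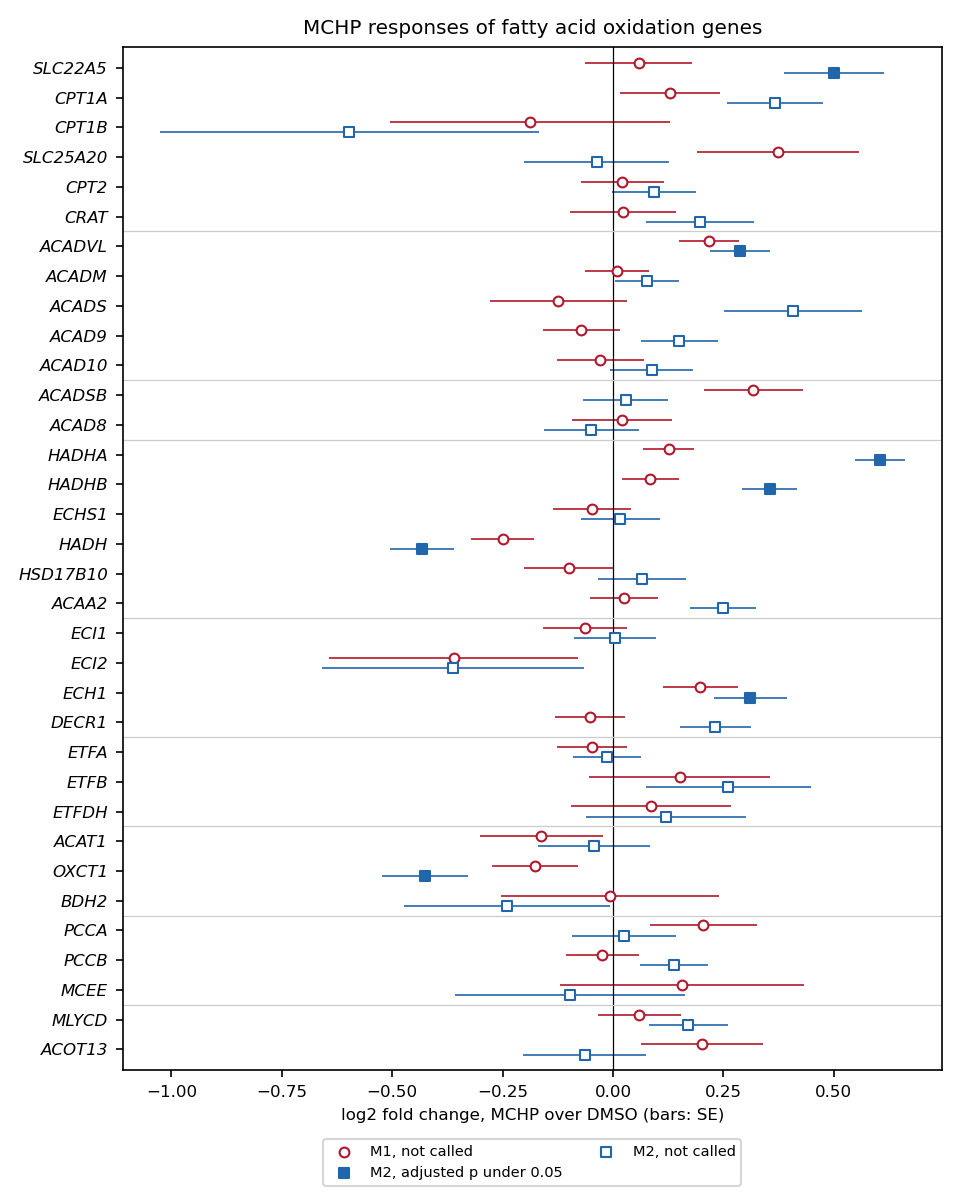
Log2 fold change of MCHP over DMSO in M1 (circles) and M2 (squares) for the 34 tested genes, ordered by role with lines between roles; bars are SE and filled symbols mark an adjusted p under 0.05. Filled squares are the 5 genes that rose and the 2 that fell in M2, from HADHA at 0.60 to HADH at -0.43, and no M1 value is filled.

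Whether the response differed between polarizations was tested as the M1 response minus the M2 response. HADHA was the 1 gene called of 34, beside 0.164% of all genes: its response was 0.13 in M1 and 0.60 in M2, a difference of -0.48 ± 0.08 (adjusted p = 0.019). At an unadjusted p under 0.05 there were 5 of the 34, all with the lower response in M1, against 8.84% of all genes. HADHB was at -0.27 ± 0.09 (adjusted p = 0.35), SLC22A5 at -0.44 ± 0.17 (adjusted p = 0.43), ACADS at -0.53 ± 0.22 (adjusted p = 0.49) and DECR1 at -0.28 ± 0.11 (adjusted p = 0.46). These 4, the rest of the 5, were not called. CPT1A stood at -0.24 ± 0.16 (adjusted p = 0.72). ACADVL (-0.07 ± 0.10), ECH1 (-0.11 ± 0.12), HADH (0.18 ± 0.10) and OXCT1 (0.25 ± 0.14), which were called in M2 and not in M1, were not shown to differ between the polarizations. The HADHA call was lost when any of 8 of the 12 libraries was left out, with adjusted p up to 0.084. Without M2 DMSO replicate 1 HADHA (-0.46, adjusted p = 0.00024), HADHB (-0.33, adjusted p = 0.0060) and DECR1 were called, beside 2.46% of all genes, and the difference for ACADVL changed sign, to 0.014.

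Between polarizations in DMSO, 6 of 34 genes were higher in M1 than in M2 and 11 were lower, beside 42.5% of all genes called (21.6% higher, 20.9% lower). At an unadjusted p under 0.05 there were 22, against 49.3% of all genes. The median log2 fold change, M1 over M2, was -0.20, against 0.00 for all genes, with 13 positive and 21 negative values. Scaling by library size alone moved the median of all genes by -0.13, to -0.13, and that of the 34 genes to -0.33, and then called 3 higher and 17 lower; ACADS, ACAD9 and DECR1 lost their calls. Without M2 DMSO replicate 1, 5 were higher and 15 lower, beside 46.2% of all genes.

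Within the shuttle the CPT1 paralog CPT1B was higher in M1 and the carrier lower. CPT1B had 1.79, 1.89 and 1.59 CPM in M1 DMSO, against 0.693, 0.412 and 0.912 CPM in M2 DMSO, without overlap (1.37 ± 0.35, adjusted p = 0.0038). Its low counts and its readthrough neighbour, named above, limit this value. SLC25A20, the carnitine-acylcarnitine carrier (ENSG00000178537, chromosome 3, 48856931 to 48898993), had 5.50, 4.58 and 4.77 CPM in M1 DMSO, against 8.19, 9.65 and 8.78 CPM in M2 DMSO, and all 3 M1 libraries were lower (-0.84 ± 0.18, adjusted p = 0.00071). CRAT had 27.1, 27.6 and 28.2 CPM in M1 DMSO, against 15.6, 21.2 and 23.7 CPM in M2 DMSO, where replicate 1 was the lowest (0.45 ± 0.12, adjusted p = 0.0056; 0.30 without that library, still called). CPT1A (-0.28 ± 0.11, adjusted p = 0.055) and SLC22A5 (-0.21 ± 0.12) were not called with all libraries, and both were called lower in M1 without M2 DMSO replicate 1.

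Both branched-chain dehydrogenases were lower in M1. ACADSB (ENSG00000196177, chromosome 10, 123008979 to 123058311) had 8.08, 7.55 and 7.06 CPM in M1 DMSO, against 16.3, 17.8 and 18.0 CPM in M2 DMSO, a clear separation (-1.20 ± 0.11, adjusted p = 2.5e-08). ACAD8, the isobutyryl-CoA dehydrogenase of valine breakdown, had 15.9, 15.4 and 13.9 CPM in M1 DMSO, against 20.6, 17.7 and 22.2 CPM in M2 DMSO (-0.42 ± 0.11, adjusted p = 0.0046). Of the straight-chain enzymes, ACADS had 9.72, 9.24 and 10.6 CPM in M1 DMSO, against 5.36, 8.71 and 8.04 CPM in M2 DMSO. ACADS was called higher (0.41 ± 0.16, adjusted p = 0.041) but not without M2 DMSO replicate 1, its lowest library (adjusted p = 0.18). That call was lost under 10 of 18 alternatives in all. ACAD9 was higher (0.27) and ACADVL (-0.32) and ACAD10 (-0.25) were lower in M1. The call of ACAD9 was lost under 5 of 18 alternatives, including without M2 DMSO replicate 1, and that of ACAD10 under 12, including DESeq2.

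HADHA had 119, 117 and 119.5 CPM in M1 DMSO, against 163, 167 and 173 CPM in M2 DMSO (-0.50 ± 0.06, adjusted p = 8.7e-07), and its partner HADHB was also lower in M1 (-0.40 ± 0.06). HADH was higher in M1 (0.32 ± 0.07), as was DECR1 (0.30 ± 0.08). ETFA had 101, 102 and 94.2 CPM in M1 DMSO, against 146, 122 and 127 CPM in M2 DMSO (-0.40 ± 0.08, adjusted p = 0.00033). ETFB (-0.49 ± 0.20, adjusted p = 0.054) and ETFDH (0.16 ± 0.18) were not called with all libraries. Both were called without M2 DMSO replicate 1, and ETFB also by DESeq2. Each gene of this paragraph that was called with all libraries had M1 and M2 libraries that did not overlap.

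ACAT1, the acetoacetyl-CoA thiolase (ENSG00000075239, chromosome 11, 108121516 to 108147776), had 8.93, 9.84 and 11.3 CPM in M1 DMSO, against 17.1, 15.6 and 12.4 CPM in M2 DMSO (-0.58 ± 0.13, adjusted p = 0.0014). PCCB, the beta subunit of propionyl-CoA carboxylase (ENSG00000114054, chromosome 3, 136250306 to 136337896), had 26.6, 24.1 and 24.1 CPM in M1 DMSO, against 37.9, 38.3 and 42.4 CPM in M2 DMSO (-0.67 ± 0.08, adjusted p = 1.5e-06). Neither gene's groups overlapped, and 22.1% of the exonic bases of PCCB are shared with a gene on the other strand, whose reads cannot be told apart without a strand setting. Its alpha subunit PCCA stood at -0.20 ± 0.12 and was not called, while MLYCD, which removes the CPT1 inhibitor malonyl-CoA, was lower in M1 (-0.24), a call lost under 9 of 18 alternatives, including DESeq2. OXCT1 (-0.07), BDH2 (-0.36), MCEE (-0.33) and ACOT13 (0.11) were not called.

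**Figure D5:**
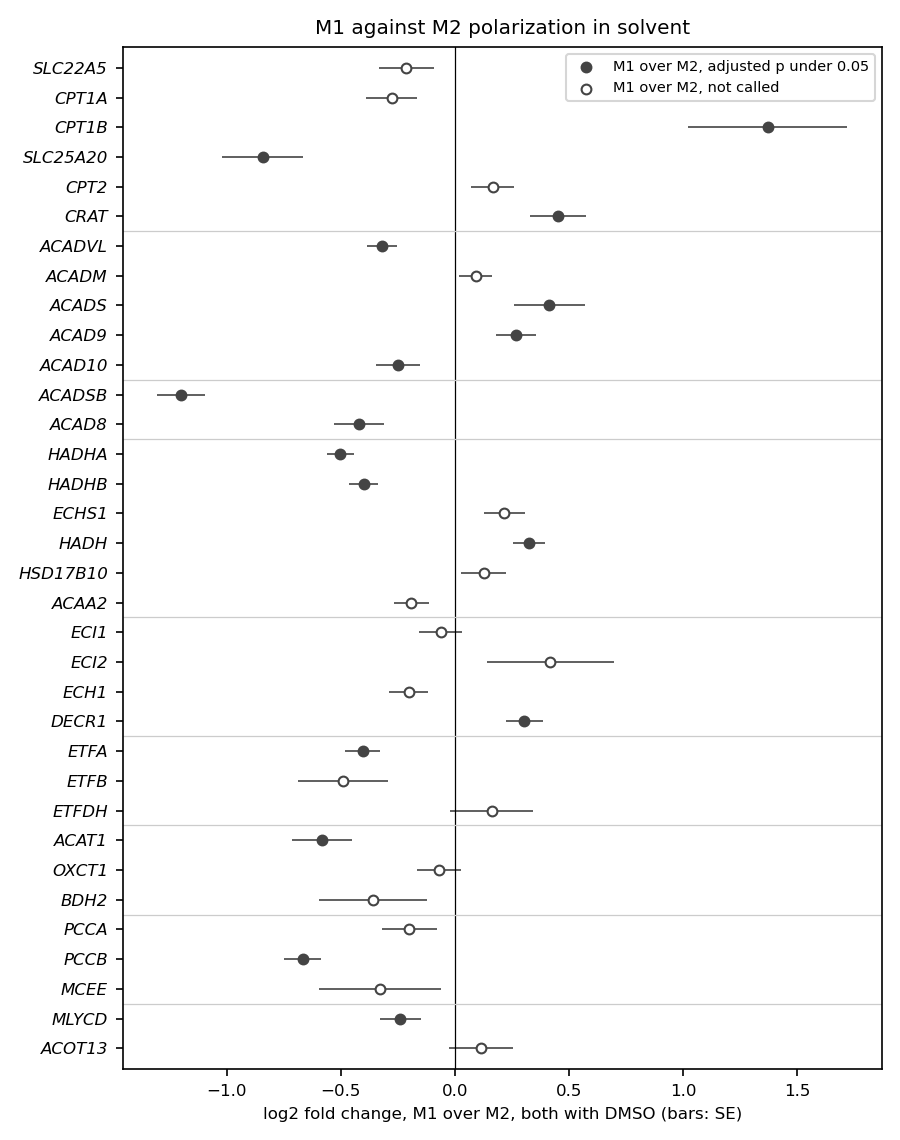
Log2 fold change of M1 over M2, both with DMSO, for the 34 tested genes, ordered by role with lines between roles; bars are SE and filled points mark an adjusted p under 0.05. The 17 filled points run from ACADSB at -1.20 to CPT1B at 1.37.

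The MCHP comparison in M2 and the comparison of M1 with M2 share the 3 M2 DMSO libraries, so their values are given side by side only. For MCHP in M2 and for M1 over M2 the log2 fold changes were 0.60 and -0.50 for HADHA, 0.35 and -0.40 for HADHB, 0.29 and -0.32 for ACADVL, and -0.43 and 0.32 for HADH. For the other 3 genes called in M2 they were 0.50 and -0.21 for SLC22A5, 0.31 and -0.20 for ECH1 and -0.43 and -0.07 for OXCT1, of which the M1 over M2 values were not called. By level, HADHA was highest in M2 MCHP (239 to 269 CPM), then M2 DMSO (163 to 173), M1 MCHP (129 to 130.0) and M1 DMSO (117 to 119.5), with no neighbours overlapping. HADH was highest in M1 DMSO (88.8 to 102 CPM) and lowest in M2 MCHP (56.1 to 57.8 CPM). M1 MCHP (80.3 to 81.3 CPM) lay within the range of M2 DMSO (71.7 to 84.8 CPM), whose upper end was M2 DMSO replicate 1. The other M2 DMSO libraries, at 71.7 and 74.0 CPM, lay below every M1 MCHP library.

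Gene lists next to these steps were read the same way. Of 17 tested genes of the tricarboxylic acid cycle, which burns the acetyl-CoA made by beta-oxidation, 0 were called with MCHP in M2 or in M1 by edgeR or by DESeq2, with 0 in M2 and 1 in M1 at an unadjusted p under 0.05. Of all genes edgeR called 5.11% in M2 and 0.0852% in M1, and 18.8% and 5.36% had such an unadjusted p. With shares this low in M1, 0 calls among 17 genes say little. Between M1 and M2 in DMSO 1 was higher and 11 were lower, with a median of -0.32, beside 42.5% of all genes called. Of 21 tested further genes of mitochondrial acyl-CoA and ketone metabolism 0 were called with MCHP in either polarization by edgeR, against 1 in M2 and 0 in M1 by DESeq2, and 2 in M2 and 0 in M1 had an unadjusted p under 0.05. Of all genes, 18.8% had such a p in M2 and 5.36% in M1, and edgeR called 5.11% and 0.0852%. Between M1 and M2 in DMSO 6 of them were higher and 4 lower, beside 42.5% of all genes called.

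Of 16 tested regulators of fatty acid oxidation, 1 was called with MCHP in M2, beside 5.11% of all genes. It was ACACA, which makes malonyl-CoA and averaged 71.4 CPM in M2 MCHP and 58.2 CPM in M2 DMSO (0.29, adjusted p = 0.021). With MCHP in M1, 0 of the 16 were called, beside 0.0852% of all genes. Between M1 and M2 in DMSO 2 of them were higher and 5 lower, beside 42.5% of all genes called. The 13 mitochondrially encoded mRNAs had 9 members called higher with MCHP in M2 and 0 lower, with a median of 0.39, beside 2.92% of all genes called higher. Among them were MT-CYB of complex III (0.45, adjusted p = 0.0017), MT-ATP6 of the ATP synthase (0.44, adjusted p = 0.0023), and MT-ND5 (0.46, adjusted p = 0.0023) and MT-ND6 (0.39, adjusted p = 0.0034) of complex I. In M1 0 of the 13 were called by edgeR or DESeq2, beside 0.0852% of all genes by edgeR. At an unadjusted p under 0.05 there were 2, against 5.36% of all genes. The difference of responses, M1 minus M2, also had 0 called by edgeR or DESeq2, beside 0.164% of all genes by edgeR. There 9 had an unadjusted p under 0.05, against 8.84% of all genes. Between M1 and M2 in DMSO 2 were higher and 1 lower, beside 42.5% of all genes called.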

How the data were processed

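The deposited table holds whole-number counts per gene for 12 libraries and a length for each gene, per the file headers. Of its 58907 genes, 26650 had no count. Depth was 14352202 to 16871233 counts per library. Tools named in the submitters' processing notes, without a role or an order, are DESeq2 1.20.0, featureCounts 1.5.0-p3, StringTie 1.3.3b, HISAT2 2.0.5 and fastp, with hg38 as the build. A strand setting is not given in the sources used here.

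The quasi-likelihood F-test of edgeR 4.0.16 (R 4.3.3; glmQLFit and glmQLFTest, two-sided) was run on these counts after filterByExpr and TMM scaling. All 12 libraries entered a single model with a mean for each of the 4 groups, which left 8 residual degrees of freedom. Adjustment was by Benjamini-Hochberg over all 15252 genes tested, and a gene was called at an adjusted p under 0.05. The SE is the log2 fold change divided by the root of F. The procedure was tested on simulated data. FPKM divide CPM by the length of the gene model, the union of its exons, so that a long model such as that of HADH (12086 bases) gives a lower FPKM for the same CPM.

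The 35 genes and the other lists were chosen with earlier results of these data known. Values in each library were given for genes called with MCHP or in the difference, for CPT1A and HADHB, and for the 10 called genes with the largest change between M1 and M2. ACAA2, SLC25A20 in M1 with MCHP, the 5 genes with an unadjusted p under 0.05 in M1 and the count ratios were added after their values were seen. From the other lists, up to 4 called genes with the smallest p for MCHP were named. The result of 1 of these lists is not reported here. Shared exons were computed from GENCODE 29. Promoter windows were those of RefSeq (GRCh38.p14), with 29 of the 35 genes matched. Alternatives were DESeq2 1.42.0, its size factors in edgeR, library size alone, no filter, a replicate block, the compared libraries alone, and each library left out in turn.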

Additional observations from a re-analysis of the deposited data

Results flagged for a closer look

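The response of HADHA to MCHP differed between polarizations by the test of the difference itself: M1 minus M2 was -0.48 on the log2 scale (adjusted p = 0.019 by edgeR), with 0.13 in M1 and 0.60 in M2. HADHA was higher with MCHP in 3 of 3 libraries in each polarization. The call was lost in 8 of the 12 fits that left out a library, where the difference lay between -0.49 and -0.43.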

How the results depend on the processing

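With MCHP in M2, 7 genes were called, beside 5.11% of all genes. The count was 2 (beside 1.26%) when only the libraries compared were fitted, and 4 to 10 (beside 2.44% to 11.2%) when a library was left out. With MCHP in M1, 0 were called, beside 0.0852% of all genes. The count was 2 (beside 2.07%) when only the libraries compared were fitted, and 0 to 2 (beside 0.00639% to 1.02%) when a library was left out. In the difference between responses 1 was called, beside 0.164% of all genes, or 0 to 3 (beside 0.0319% to 2.46%) with any library removed. Between M1 and M2, 17 were called, beside 42.5% of all genes, and 13 to 20 (beside 35.8% to 46.2%) when a library was left out. The difference for ACADVL, at -0.07 with all libraries, lay between -0.12 and 0.014 with any library removed, and was positive without M2 DMSO replicate 1 (adjusted p = 0.96). ECH1 with MCHP in M2 was lost under 10 of 18 alternatives (adjusted p up to 0.19), and HADHA and HADH were called under all 18. Among the genes chosen by rule for values in each library, 674 single-gene values kept their direction and call. Of the rest 17 gained a call, 38 lost one and 1 changed sign. ACAD9, ACAD10, DECR1 and MLYCD are outside this tally. Their calls between M1 and M2 were lost under 5, 12, 1 and 9 of 18 alternatives, in that order.

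No pairing of the samples by replicate number was seen: correlations of same-numbered libraries' deviations ran from -0.07 to 0.07 over 18 pairs. A weak pairing could give such values too and is not excluded. A fit with the replicate block called 6 genes with MCHP in M2, 0 in M1, 1 in the difference and 17 between M1 and M2. Of all genes it called 4.54%, 0.0328%, 0.157% and 41.9%, in that order. Scaling by library size alone gave 306 genes higher and 465 lower of all genes with MCHP in M2, against 446 and 333 with TMM factors. Genes with few counts, such as CPT1B (3 to 28 per library) and ECI2 (24 to 60), limit what could be detected. The cause was not tested for any of these changes.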
